A study of Mus musculus with 6 samples.

Results

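The 51 genes described here encode the ephrins, the Eph receptors, the semaphorins and the plexins, chosen by gene symbol alone (Efna and Efnb, Epha and Ephb, Sema classes 3 to 7, Plxna to Plxnd) from the 32219 named genes of the table. They comprise 8 ephrins, 14 Eph receptors, 20 semaphorins and 9 plexins, and no expression value entered the choice. They were measured by RNA-seq of polyadenylated RNA from mouse intestine in 3 libraries of genotype KO and 3 of genotype WT. The sources used here do not name the gene removed in KO, the strain, the sex or the age of the animals, or whether each library is a separate animal, so every p-value measures the spread between libraries, which may be technical. The labels list intestinal epithelium, immune cells and enteric neurons together as the material, and the series text speaks of the duodenum.

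Ephrins and Eph receptors signal between touching cells: ephrin-As are held in the membrane by a lipid anchor and mostly bind EphA kinases, ephrin-Bs span the membrane and mostly bind EphB kinases, and both partners can signal into their own cell. In the small intestine, EphB2 and EphB3 are targets of Wnt signalling in the crypt and, with ephrin-B1 and ephrin-B2 on the cells above, keep proliferating, Paneth and differentiated cells in their places. Semaphorins are secreted or membrane-bound cues first known for steering axons, and plexins are their receptors. Class 3 semaphorins are secreted and mostly need a neuropilin beside the plexin, whereas classes 4 to 7 act at the cell surface.

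Values are on the authors' deposited log scale, taken here as log2(abundance + 1). Base 2 is an assumption, and whether abundance was divided by gene length is not stated, so levels are compared between libraries for one gene and not between genes. Depth is unknown. The library KO 1 holds no values on chromosomes 2 to 9, X, Y and M or on most of chromosome 19. It therefore has no value for 34 of the 51 genes, and its linear values were divided by 2.12 for the other 17, those it covers. Marker genes also set KO 1 apart: the 4 covered proximal gut markers summed to 182.5 linear units in KO 1 after rescaling, against 1.75 to 4.53 in the other 5 libraries, and the 4 covered distal markers to 15.9, against 323.5 to 463.3. The 5 other libraries were thus high in distal and low in proximal markers, although the series text names the duodenum. None of the marker genes of epithelium, enteric neurons, glia, muscle, fibroblasts, endothelium or immune cells was at 0 in all 5. The comparison below is therefore KO 2 and KO 3 against WT 1, WT 2 and WT 3, with KO 1 given separately. Dhx9, named in the series title, stood at 6.17 in KO 2, 6.08 in KO 3 and 6.03 in KO 1 after rescaling, against 5.94 to 6.01 in WT. Ffar3, also named there, stood at 0.35 in KO 2 and 0.59 in KO 3, against 0.18 to 0.60 in WT. KO 1 does not cover Ffar3.

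No ephrin, Eph receptor, semaphorin or plexin differed between KO and WT past the threshold. All 51 were above 0 in at least 2 of the 5 libraries and were tested, and limma with Benjamini-Hochberg adjustment over 23408 genes called 0 of them, with 0 at an unadjusted p under 0.05. Over all genes tested, 1 gene passed (0.00427%) and 2.41% had an unadjusted p under 0.05, so the members' count of 0 lies beside a background that is itself near 0. The smallest adjusted p of any member was 0.99997. The log2 folds ran from -0.19 for Sema6c to 0.34 for Sema4d, with a median of 0.01 over the members and 0.02 over all genes tested. Of the members, 31 had a positive fold and 20 a negative one, which is 60.8% positive, as it was for 60.8% of all genes. This split moved with the scaling: 18 of 51 were positive after centring each library on one median and 22 after quantile normalization. KO and WT values did not overlap for 4 members, all higher in KO (Ephb3, Sema7a, Sema3e and Epha10), where 9.76% of all genes had both KO libraries above every WT library. No member had both KO libraries below every WT library, against 3.55% of all genes.

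The intervals say how large a difference each gene could still hide. On the log2(value + 1) scale a given fold moves a low gene by less than a high one, so each gene's 95% interval was set against the shift that a 2-fold or 1.5-fold change would give at its own WT mean. Among the 36 members with a mean of 1 or more over the 5 libraries, the interval excluded a 2-fold change in either direction for 32 and a 1.5-fold change in either direction for 20. The 4 that did not exclude a 2-fold change were Sema4d, Plxnc1, Sema6b and Sema6c. Of the 15 members under a mean of 1, the interval excluded a 2-fold change for 6 and a 1.5-fold change for 0. The interval ran from -0.21 to 0.23 for Ephb4, from -0.16 to 0.25 for Efnb1 and from -0.27 to 0.18 for Epha2. It was widest for Sema4d (-0.40 to 1.09) and Plxnc1 (-0.36 to 0.94). These limits rest on the assumed base and constant.

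Exons of 13 members overlap exons of another gene, and without a stated strand setting the reads of such stretches cannot be assigned. The overlaps on the opposite strand span 970 bases for Plxna1, 344 for Efna3, 334 for Sema4c, 257 for Plxnb1, 236 for Epha1 (with Zyx), 168 for Efna4, 152 for Ephb1, 110 for Plxna4, 107 for Epha6, 79 for Epha10 and 33 for Ephb4 (with Zan). Those on the same strand span 115 bases for Plxnc1 and 73 for Sema4a.

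**Figure D1:**
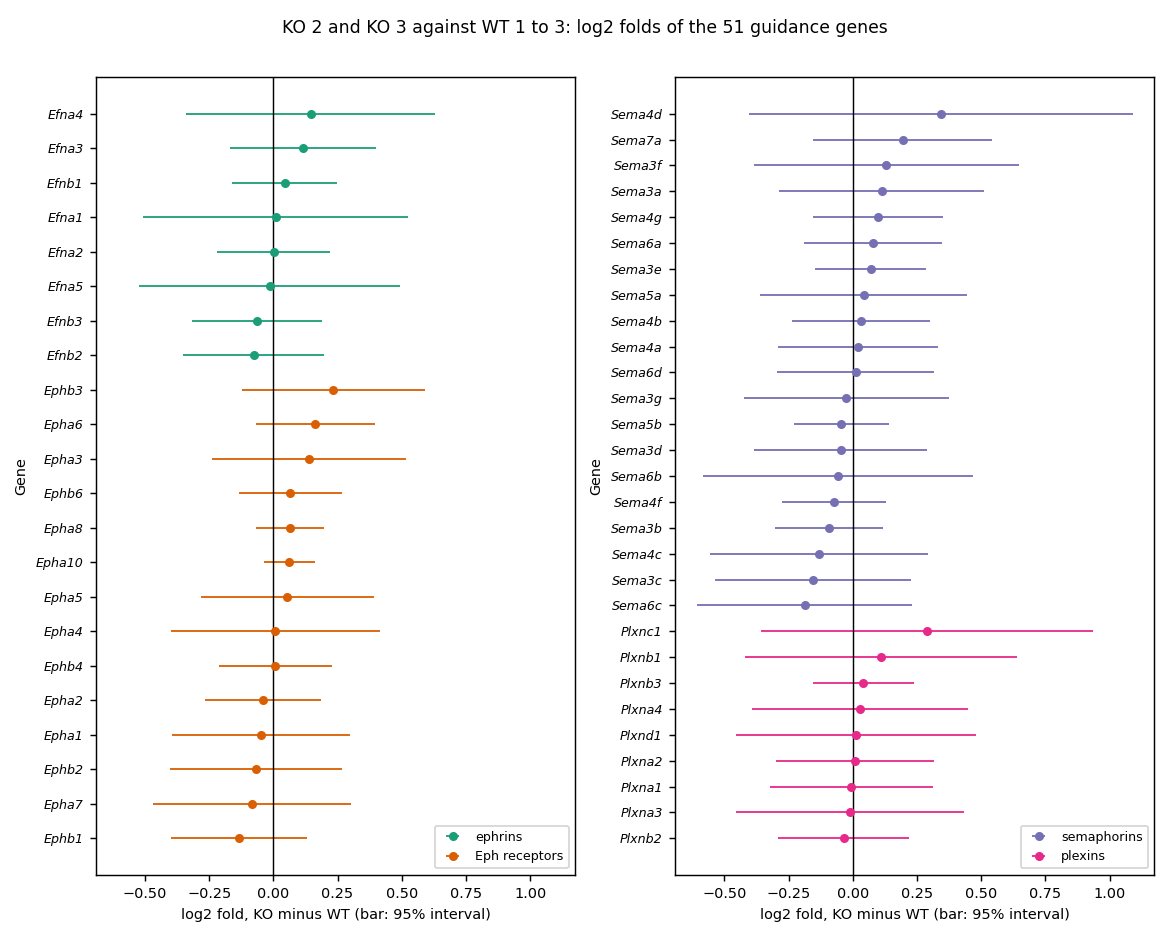
Log2 fold of KO 2 and KO 3 over WT 1 to 3 (x axis) for each of the 51 genes (y axis), with points for the limma estimate and bars for its 95% interval. Every bar crosses 0, and the widest bars belong to Sema4d and Plxnc1.

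Among the receptors of the crypt, Ephb3 (GRCm38 chromosome 16, 21204755 to 21223305, plus strand, protein-coding) had the most positive fold of the Eph family. It stood at 3.44 in KO 2 and 3.30 in KO 3, against 3.25, 3.25 and 2.91 in WT 1, WT 2 and WT 3. Both KO libraries were above all WT libraries, though KO 3 led WT 1 by little and WT 3 was the low one. The log2 fold was 0.23 ± 0.14 (SE, limma, adjusted p = 0.99997), and in KO 1 the rescaled value was 2.42, below all 5 others. Without WT 3 the fold was 0.12, and with KO 1 included after rescaling it was -0.08 ± 0.28 (SE), so its direction depends on KO 1. As deposited, Ephb3 stood at 3.35 in KO 1, inside the range of the other libraries, so its place below them depends on the rescaling. The 10 crypt stem and progenitor markers summed to 370.8 in KO 2 and 302.8 in KO 3, against 315.5, 359.2 and 314.2 in WT 1, WT 2 and WT 3. Of the 7 that KO 1 covers, 4 were below the other 5 libraries in KO 1 after rescaling. The part of crypt cell content in the Ephb3 values was not tested.

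Ephb2, the other Wnt-responsive EphB kinase (chromosome 4, 136647539 to 136835988, minus strand), stood at 3.30 in KO 2 and 3.43 in KO 3, against 3.64, 3.31 and 3.34 in WT 1, WT 2 and WT 3. The groups overlapped, with WT 1 the highest library, and the fold was -0.07 ± 0.14 (SE). Ephb4, a receptor for ephrin-B2 that is best known from veins (chromosome 5, 137350109 to 137378669, plus strand), stood at 4.26 and 4.29 in KO 2 and KO 3, against 4.25, 4.36 and 4.18 in WT 1, WT 2 and WT 3. Its fold was 0.01 ± 0.09 (SE).

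KO and WT values of the 3 ephrin-B ligands overlapped. Efnb1 (chromosome X, 99136130 to 99148991, plus strand) stood at 4.54 and 4.64 in KO 2 and KO 3, against 4.60, 4.48 and 4.56 in WT 1, WT 2 and WT 3, so the groups overlapped (fold 0.04 ± 0.08, SE). Efnb2, a ligand of arterial endothelium as well as of the crypt-villus axis (chromosome 8, 8617434 to 8661242, minus strand), stood at 4.70 and 4.63 in KO 2 and KO 3, against 4.80, 4.57 and 4.86 in WT 1, WT 2 and WT 3 (fold -0.08 ± 0.11, SE). The KO values lay inside the WT range. Efnb3 was low in every library, at 0.55 and 0.77 in KO 2 and KO 3, against 0.66 to 0.78 in WT. Ephb1 stood at 0.32 in both KO libraries, against 0.56, 0.55 and 0.26 in WT 1, WT 2 and WT 3 (fold -0.13 ± 0.11, SE), with WT 3 below the KO libraries. Ephb6, whose kinase domain lacks activity, ranged from 0.54 to 0.59 in KO and from 0.41 to 0.59 in WT.

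Of the ephrin-A ligands and EphA receptors, only Epha10 had KO and WT values that did not overlap. Efna1, a ligand found on epithelium and endothelium, stood at 3.80 in KO 2 and 4.40 in KO 3, against 4.25, 3.87 and 4.14 in WT 1, WT 2 and WT 3. KO 2 was thus the lowest and KO 3 the highest of the 5 libraries, and the fold was 0.01 ± 0.21 (SE). Epha2, the main epithelial EphA kinase, was far narrower, at 4.16 and 4.08 in KO 2 and KO 3, against 4.10 to 4.26 in WT. Epha1 stood at 4.02 and 4.10 in KO 2 and KO 3, against 3.97 to 4.36 in WT. Efna3 stood at 0.86 and 0.79 in KO 2 and KO 3, against 0.64, 0.87 and 0.61 in WT 1, WT 2 and WT 3 (fold 0.12 ± 0.11, SE), with WT 2 the highest library. Efna4 ranged from 1.84 to 1.96 in KO and from 1.57 to 2.04 in WT. Efna5 stood at 1.80 and 2.13 in KO 2 and KO 3, against 1.71 to 2.12 in WT, and Efna2 at 0.51 and 0.71, against 0.59 to 0.63 in WT.

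Epha6, whose known roles lie mainly in the nervous system, had the smallest p of the 51 members (unadjusted p = 0.132). It stood at 0.38 in KO 2 and 0.54 in KO 3, against 0.24, 0.43 and 0.21 in WT 1, WT 2 and WT 3, and WT 2 lay between the KO libraries. The fold was 0.16 ± 0.09 (SE) at this low level, 0.25 without KO 2 and 0.08 without KO 3, and KO 1, which covers chromosome 16, listed the gene at 0. KO 3 was also the highest library for Epha3, Epha5, Epha8 and Epha10, all under a mean of 1, and for 25.95% of all genes tested. Epha1 and Epha2 were instead highest in WT 1, and Epha4 and Epha7 in WT 2. Epha3 stood at 0.62 in KO 2 and 1.02 in KO 3, against 0.54 to 0.79 in WT, and Epha5 at 0.66 in KO 2 and 0.99 in KO 3, against 0.66 to 0.86 in WT. Epha8 stood at 0.10 in KO 2 and 0.23 in KO 3, against 0.10, 0.14 and 0.06 in WT 1, WT 2 and WT 3 (fold 0.06 ± 0.05, SE, and -0.001 without KO 3). Epha10, a receptor without kinase activity, stood at 0.07 in KO 2 and 0.16 in KO 3, against 0.06, 0.03 and 0.07 in WT 1, WT 2 and WT 3 (fold 0.06 ± 0.04, SE, and 0.02 without KO 3). For both, KO 2 stood close to the WT values. The summed level of the 12 enteric neuron markers was 46.1 in KO 2 and 70.6 in KO 3, against 49.98, 59.2 and 70.6 in WT 1, WT 2 and WT 3. That sum was as high in WT 3, where Epha6 and Epha8 were lowest, as in KO 3. However, Tac1, one of these markers, stood at 4.725 in WT 3, against 3.245 to 3.548 in the other libraries. The median deviation of the 12 markers from their WT means was -0.20 in KO 2 and 0.31 in KO 3. In WT 1, WT 2 and WT 3 it was -0.10, 0.09 and 0.01. The part of enteric neuron content in these values was not tested. In whole tissue, fewer cells of a type and less RNA per cell cannot be told apart. Epha4 and Epha7, kinases of mesenchyme and neurons, ranged from 2.05 to 2.17 and from 1.91 to 2.06 in KO, against 1.91 to 2.21 and 1.97 to 2.20 in WT.

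**Figure D2:**
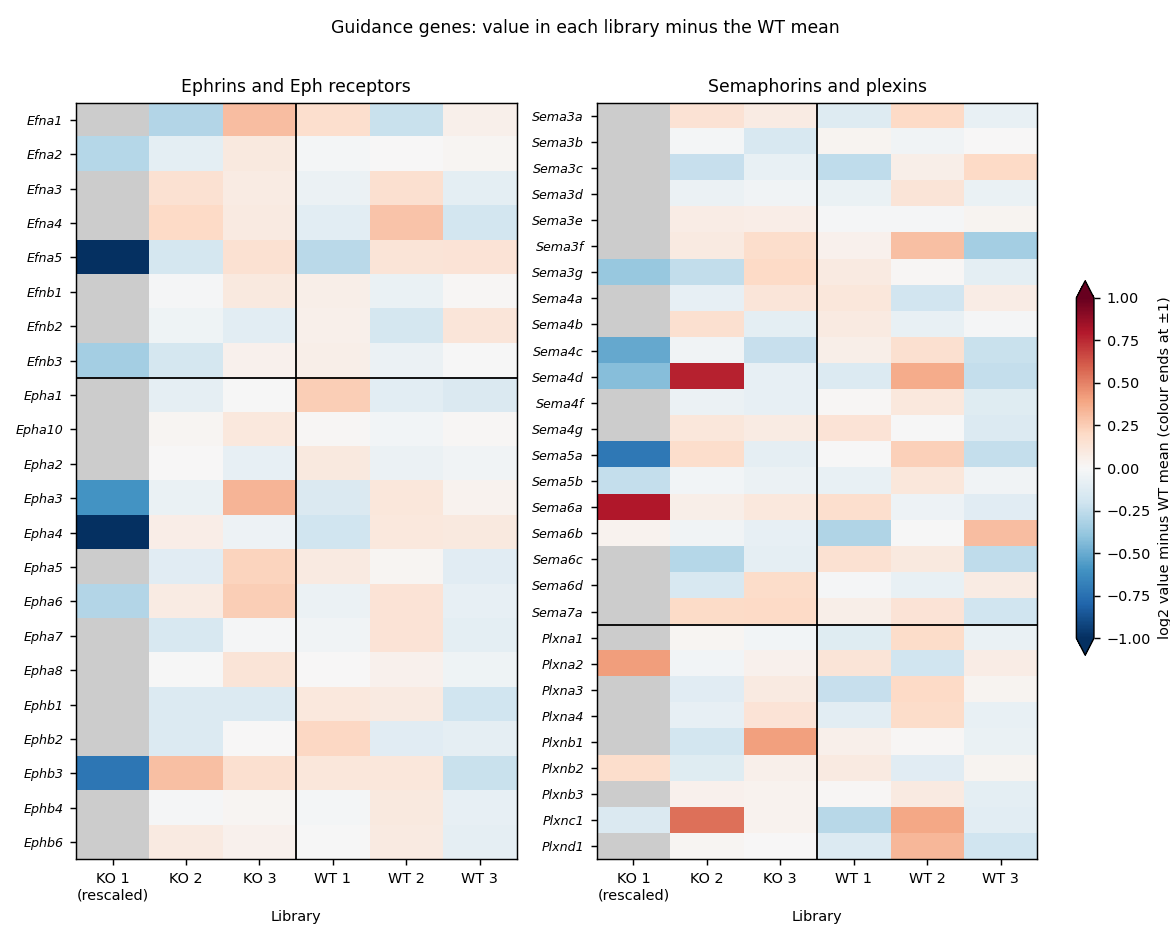
Log2 value of each gene minus its WT mean (colour, ends at ±1) in each library (x axis), with KO libraries left of the vertical line and WT libraries right of it; grey marks genes that KO 1 does not cover. KO 1 holds the strongest colours, and among the other libraries Sema4d and Plxnc1 stand out in KO 2 and WT 2.

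None of the secreted class 3 semaphorins or their plexins passed the threshold. Sema3c, a chemoattractant that also acts on endothelium, stood at 3.65 and 3.80 in KO 2 and KO 3, against 3.62, 3.94 and 4.08 in WT 1, WT 2 and WT 3 (fold -0.15 ± 0.15, SE). WT 1 was below both KO libraries, and the fold was -0.28 without WT 1, -0.07 without KO 2 and -0.05 without WT 3. Sema3b stood at 4.14 and 3.998 in KO 2 and KO 3, against 4.18, 4.13 and 4.17 in WT 1, WT 2 and WT 3, with KO 3 the lowest (fold -0.09 ± 0.09, SE). Sema3a, the axon repellent after which the class was first known, ranged from 2.30 to 2.36 in KO and from 2.09 to 2.42 in WT, and Sema3f from 2.68 to 2.76 in KO and from 2.25 to 2.89 in WT. Sema3e, which binds plexin D1 without a neuropilin, stood at 0.82 in both KO libraries, against 0.73 to 0.78 in WT. These groups did not overlap, but the fold was only 0.07 ± 0.09 (SE). Sema3d and Sema3g ranged from 1.18 to 1.20 and from 0.64 to 1.09 in KO, against 1.17 to 1.37 and 0.79 to 0.98 in WT. Plxnd1, the receptor gene for Sema3E in endothelium, stood at 2.90 and 2.89 in KO 2 and KO 3, against 2.75, 3.22 and 2.69 in WT 1, WT 2 and WT 3.

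Of the plexin A genes, the receptors of neuropilin complexes and of class 6 semaphorins, Plxna1 ranged from 3.23 to 3.28 in KO and from 3.14 to 3.45 in WT. Plxna2 ranged from 3.81 to 3.89 in KO and from 3.64 to 3.97 in WT, Plxna3 from 1.17 to 1.38 in KO and from 1.05 to 1.49 in WT, and Plxna4 from 1.45 to 1.67 in KO and from 1.42 to 1.71 in WT. For each of the 4 genes the KO values lay inside the WT range. Of the class 6 ligands, Sema6a ranged from 4.21 to 4.25 in KO and from 4.04 to 4.32 in WT, and Sema6d from 4.63 to 4.98 in KO and from 4.72 to 4.88 in WT. Sema6c stood at 0.81 and 1.01 in KO 2 and KO 3, against 1.25, 1.20 and 0.84 in WT 1, WT 2 and WT 3. Its fold was -0.19 ± 0.17 (SE), the most negative of the 51, and it was -0.09 without KO 2, -0.11 without WT 1 and -0.31 without WT 3. Sema6b ranged from 1.45 to 1.495 in KO and from 1.23 to 1.84 in WT.

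Among the membrane-bound ligands of class 4, Sema4a, Sema4b and Sema4g varied little: Sema4a ranged from 5.96 to 6.15 in KO and from 5.85 to 6.15 in WT, Sema4b from 4.91 to 5.17 in KO and from 4.93 to 5.09 in WT, and Sema4g from 5.86 to 5.89 in KO and from 5.64 to 5.91 in WT. Plxnb2, a receptor of class 4 semaphorins in epithelium and macrophages, ranged from 6.01 to 6.18 in KO and from 6.01 to 6.22 in WT. Plxnb1, the high-affinity receptor of Sema4D, stood at 1.59 in KO 2 and 2.19 in KO 3, against 1.71 to 1.83 in WT, so the KO libraries lay on either side of WT. Sema7a (chromosome 9, 57940112 to 57962865, plus strand), a lipid-anchored ligand of plexin C1 and of beta1 integrin, stood at 2.98 in both KO libraries, against 2.84, 2.92 and 2.59 in WT 1, WT 2 and WT 3. The groups did not overlap, and the fold was 0.19 ± 0.14 (SE, limma, adjusted p = 0.99997). Without WT 3, the low library, the fold was 0.10. Of the class 5 ligands, which carry thrombospondin repeats, Sema5a ranged from 4.30 to 4.56 in KO and from 4.15 to 4.62 in WT, and Sema5b from 0.33 to 0.36 in KO and from 0.31 to 0.50 in WT. Sema4c ranged from 2.22 to 2.42 in KO and from 2.24 to 2.62 in WT, Sema4f from 0.37 to 0.40 in KO and from 0.34 to 0.56 in WT, and Plxnb3 stood at 0.54 in both KO libraries, against 0.40 to 0.58 in WT.

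Sema4d and Plxnc1 had the highest folds of all members and the widest spread. Sema4d (chromosome 13, 51685529 to 51793747, minus strand), made in quantity by T cells and activating B cells, stood at 3.96 in KO 2 and 3.11 in KO 3, against 3.05, 3.56 and 2.95 in WT 1, WT 2 and WT 3. Plxnc1, a plexin of leukocytes and neurons (chromosome 10, 94790866 to 94944835, minus strand), stood at 1.67 in KO 2 and 1.16 in KO 3, against 0.85, 1.51 and 1.02 in WT 1, WT 2 and WT 3. For both genes KO 2 was highest and WT 2 second, and KO 3 lay between WT 2 and the other WT libraries. The log2 folds were 0.34 ± 0.30 for Sema4d and 0.29 ± 0.26 for Plxnc1 (SE). For Sema4d the fold was -0.08 without KO 2, 0.77 without KO 3 and 0.53 without WT 2. For Plxnc1 it was 0.03 without KO 2, 0.55 without KO 3, 0.48 without WT 2 and 0.15 without WT 1.

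The 11 immune markers followed the same order of the upper libraries. Their summed linear level was 162.3 in KO 2 and 58.5 in KO 3, against 72.0, 132.4 and 58.8 in WT 1, WT 2 and WT 3. Ptprc, which encodes the pan-leukocyte protein CD45, stood at 5.52 in KO 2 and 3.63 in KO 3, against 4.001, 5.03 and 3.52 in WT 1, WT 2 and WT 3. Cd79a, of B cells, stood at 4.03 in KO 2 and 1.25 in KO 3, against 0.59, 3.10 and 0.31 in WT 1, WT 2 and WT 3. None of the 11 was at 0 in all 5 libraries. The part of immune cell content in the values of Sema4d and Plxnc1 was not tested.

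Single libraries held the extreme values of many members. KO 2 held the highest value of the 5 libraries for 5 members (9.80%) and KO 3 for 14 (27.5%), beside 22.6% and 25.9% of all genes tested. WT 2 was the highest for 18 members and WT 3 the lowest for 19, which is 35.3% and 37.3% of the 51, beside 21.5% and 25.4% of all genes tested. The following genes were chosen after their values were seen. Plxnd1, Sema3a and Plxna1 were highest in WT 2, the library with the highest summed levels of fibroblast and blood endothelium markers. The 10 fibroblast markers summed to 636.8 and 696.4 in KO 2 and KO 3, against 678.6, 918.3 and 747.1 in WT 1, WT 2 and WT 3. The 10 blood endothelium markers summed to 84.5 and 87.3 in KO 2 and KO 3, against 90.8, 112.4 and 68.9 in WT 1, WT 2 and WT 3. Sema4a, Plxnb2 and Efna1 were lowest in KO 2 and WT 2, where the 9 epithelium markers also summed to the least: 1571 in KO 2 and 1795 in KO 3, against 1792, 1457 and 1794 in WT 1, WT 2 and WT 3. The part of these cell types in the members' values was not tested.

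**Figure D3:**
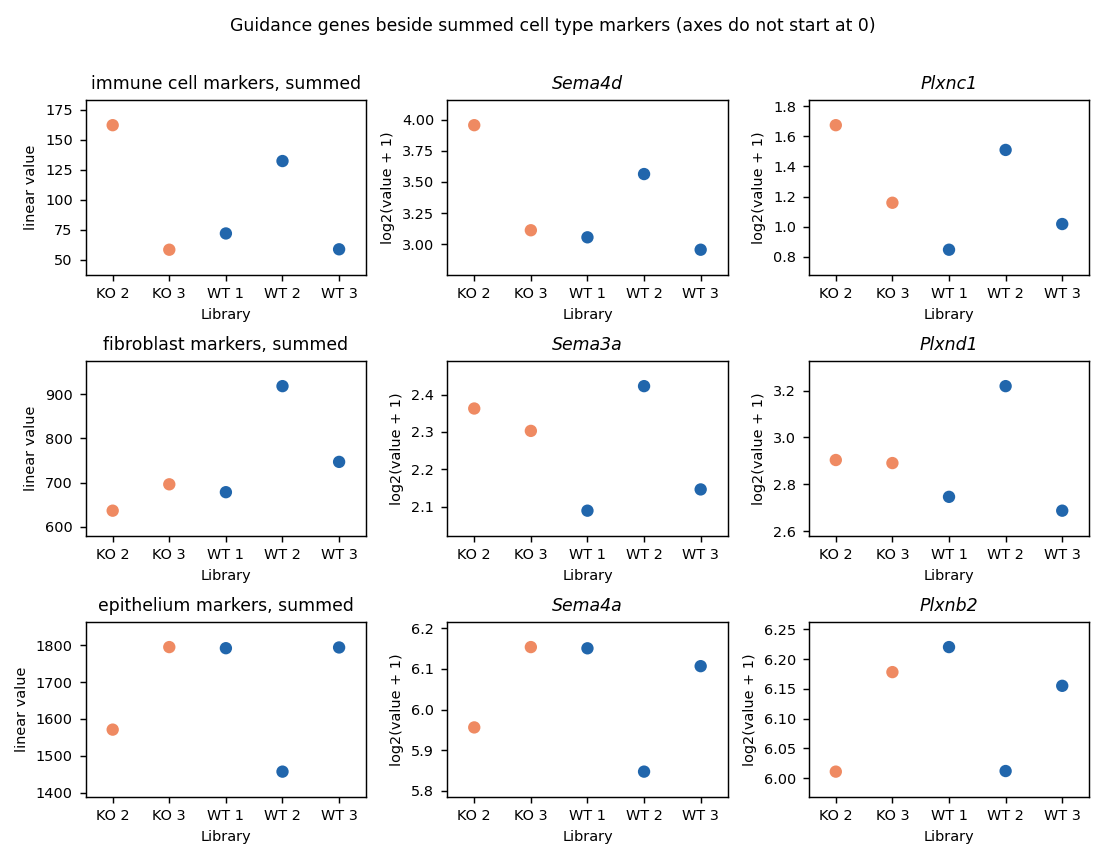
Summed linear values of cell type markers (left column) beside the log2(value + 1) of members (middle and right columns) in KO 2, KO 3 and WT 1 to 3 (x axis); orange points are KO, blue points WT, and the y axes do not start at 0. Sema4d and Plxnc1 are highest in KO 2 and WT 2, as are the immune markers, while Sema4a and Plxnb2 are lowest in these libraries, as are the epithelium markers.

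KO 1 lay outside the range of the other 5 libraries for most of the 17 members it covers. After rescaling, 12 were below all 5 others, 3 above and 2 inside, where 37.5% of all covered genes were below and 17.5% above. Among the 11 with a mean of 1 or more, 6 were below and 3 above, where 42.2% of such genes were below and 21.5% above. This describes a single library that stands apart, with no test. Efna5, an ephrin-A of mesenchyme and neurons (chromosome 17, 62604184 to 62881317, minus strand), was the furthest below, at 0.61 in KO 1, while it ranged from 1.71 to 2.13 in the other libraries. Epha4 (chromosome 1, 77367185 to 77515088, minus strand) stood at 0.99 in KO 1 and from 1.91 to 2.21 in the others, Sema5a at 3.67 and from 4.15 to 4.62, and Epha3 at 0.08 and from 0.54 to 1.02. Sema4c stood at 1.94 in KO 1 and from 2.22 to 2.62 in the others. The rest of the 12 were Ephb3 and Sema4d, given above, and the low genes Epha6, Efna2, Efnb3, Sema3g and Sema5b, with gaps to the next library of 0.13 for Sema3g to 0.21 for Epha6. Sema6b and Plxnc1 lay inside the range.

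The 3 members above the range in KO 1 were Sema6a, Plxna2, a receptor of Sema6A, and Plxnb2. Sema6a (chromosome 18, 47235598 to 47368870, minus strand) stood at 4.95 in KO 1 after rescaling and from 4.04 to 4.32 in the other libraries. Plxna2 (chromosome 1, 194618218 to 194816869, plus strand) stood at 4.26 and from 3.64 to 3.97, and Plxnb2 at 6.31 and from 6.01 to 6.22. Sema4d was at 2.77 in KO 1 and Plxnc1 at 0.98, below and inside the range of the others. Markers moved alongside: the 7 covered epithelium markers summed to 1821 in KO 1, against 1273 to 1583 in the other libraries, the 7 covered fibroblast markers to 185.6, against 515.8 to 741.8, and the 4 covered smooth muscle markers to 24.5, against 331.6 to 452.9. All 7 fibroblast and all 4 muscle markers were below the other 5 libraries. The 7 epithelium markers were split, with 4 above the other 5 libraries and 2 below them. The part of these cell types in the values of the guidance genes was not tested. With KO 1 rescaled and left as missing where it has no values, limma called 0 of 51 members and 0 of 23408 genes (0%), with 0 members at an unadjusted p under 0.05.

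**Figure D4:**
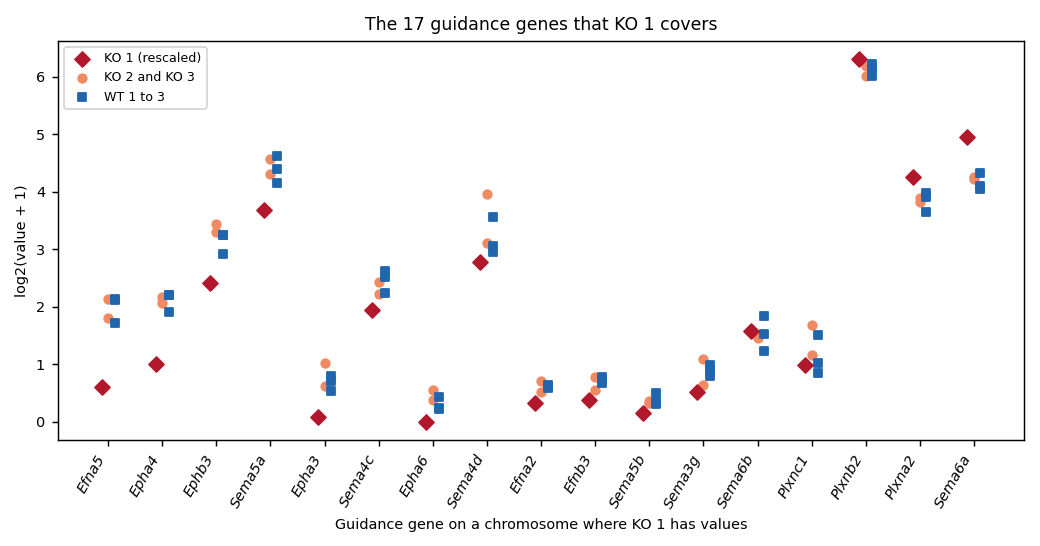
Log2(value + 1) of the 17 guidance genes that KO 1 covers (x axis, in order of how far KO 1 lies from the others), with red diamonds for KO 1 after rescaling, orange circles for KO 2 and KO 3 and blue squares for WT 1 to 3. Efna5 and Epha4 lie lowest against the other libraries in KO 1, and Sema6a highest.

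None of the partner genes listed for these families passed the threshold. Of 74 tested partner genes, 32 had a positive and 42 a negative fold (median -0.01, beside 0.02 for all genes), 0 passed by limma over all genes, and 1 had an unadjusted p under 0.05, where 2.41% of all genes did. Among 15 co-receptor and related surface genes, 5 were positive and 10 negative. L1cam, an adhesion protein that joins neuropilin-1 complexes, had the smallest p of these, at 4.81 and 4.67 in KO 2 and KO 3, against 4.62, 4.57 and 4.59 in WT 1, WT 2 and WT 3 (fold 0.14 ± 0.08, SE). Nrp2, a class 3 co-receptor, stood at 4.33 and 4.51 in KO 2 and KO 3, against 4.31 to 4.84 in WT, and at 2.58 in KO 1 after rescaling.

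Of 34 intracellular effectors, 15 were positive and 19 negative. Rasa1, a Ras GTPase-activating protein that binds activated EphB kinases, was the gene with an unadjusted p under 0.05, at 4.67 and 4.54 in KO 2 and KO 3, against 4.24, 4.35 and 4.38 in WT 1, WT 2 and WT 3. The KO libraries were above WT, the fold was 0.28 ± 0.09 (SE), and KO 1 stood at 4.17 after rescaling, below all 5 others. Mical3, of the MICAL family of redox enzymes that act downstream of plexins, stood at 4.13 and 4.06 in KO 2 and KO 3, against 4.18 to 4.34 in WT (fold -0.17 ± 0.09, SE). Nck2, an adaptor of ephrin-B and Eph signalling, stood at 4.80 and 4.83 in KO 2 and KO 3, against 4.59 to 4.73 in WT (fold 0.14 ± 0.08, SE). Of 25 netrin, slit and repulsive guidance genes tested, 12 were positive and 13 negative. Ntn3 had the smallest p there, at 0.77 in both KO libraries, against 0.91, 1.24 and 0.86 in WT 1, WT 2 and WT 3 (fold -0.24 ± 0.15, SE). None of these named partner genes passed the adjusted threshold.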

How the data were processed

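The values the authors deposited are 1 table on a log scale for 6 polyA-selected RNA-seq libraries, taken here as log2(abundance + 1). Per the labels the build is mm10; the sources used here do not give the aligner, counting, strand setting, abundance unit, log base or depth. Of 32245 rows, 26 held dates in place of symbols and were left out. GENCODE vM21 (GRCm38) gave positions and exon overlaps. Coverage of KO 1 was taken per chromosome from genes at 0, and on chromosome 19 up to Tmem258. Its factor of 2.12 is the median ratio to the other libraries over 2160 covered genes at 4 or more.

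KO 2 and KO 3 were compared with the 3 WT libraries by limma 3.58.1 (R 4.3.3) with a variance trend, 2-sided, over 23408 genes above 0 in at least 2 of 5 libraries, with Benjamini-Hochberg adjustment and a threshold of 0.05. The script was tested on simulated data for KO 2 and KO 3 against 3 WT, with changes placed in genes at or above the median level. It recovered 46.4% of shifts equal to a 2-fold change on the log2 scale and 88.2% of those equal to a 4-fold change. False calls averaged 7 per run. A 2-fold change can thus go uncalled in this design. Values per library are given for the 12 members with the smallest p and 5 crypt genes. For up to 8 members with KO 1 furthest outside the others, the KO 1 value is given beside the range of the others. Up to 4 genes are named per partner list, and other members are given by range or value. Members, lists and tests were chosen with earlier results of these data known. Alternatives were other uses of KO 1, scalings, filters, added constants, no trend, a replicate block and leaving out each library. Count models were not run, since no counts are held.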

Additional observations from a re-analysis of the deposited data

How the results depend on the processing

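No member passed under any setting run (smallest adjusted p by limma 0.726, with 6 libraries as deposited). The count over all genes was 1 (Gm49380), and 0 with 6 libraries as deposited, with KO 1 rescaled, with the replicate block, with no filter, with a mean of at least 1, and with an added constant of 0.1; it was 0 whichever of the 5 libraries was left out. Of 239 recomputed folds of the 16 members named with one, 220 kept their direction and 19 turned. Many of the 220 could not turn, since the other filters and the lack of a trend leave a fold as it is. Rescaling KO 1 does the same for members it does not cover. The replicate block repeats the folds without WT 1, and the fit over covered genes repeats those with KO 1 rescaled. The count of 220 thus overstates how stable the directions are. With 6 libraries as deposited, where the listed zeros of KO 1 enter, Sema7a was at -0.80, Efna3 at -0.16, Ephb4 at -1.42 and Efnb1 at -1.49. Ephb3 was at -0.0844 with KO 1 rescaled, both over all genes and over covered genes (this last setting and those for the KO 1 factor were chosen after seeing the data). Ephb4 was at -0.0367 with median centring and -0.0276 with quantile normalization, and Efnb1 at -0.0006 with centring. Over left-out libraries Sema4d ran from -0.0794 to 0.77, Ephb2 from -0.14 to 0.0348, Epha8 from -0.001 to 0.13, Ephb4 from -0.0336 to 0.0574 and Efnb1 from -0.0088 to 0.10. Under the replicate block Ephb2 was at 0.0348 and Ephb4 at -0.0019. Leaving out 1 library moved each of the 16 folds by over 1.5 times: beside those given here or with the gene, Efna3 ran from 0.07 (without WT 3) to 0.20 (without WT 2), Efnb2 from -0.17 (without WT 2) to -0.02 (without WT 3), Ephb1 from -0.23 (without WT 3) to -0.08 (without WT 1), Sema3b from -0.16 (without KO 2) to -0.02 (without KO 3), and Sema7a up to 0.26 (without WT 2). The cause of these turns was not tested. Deviations of same-numbered libraries correlated at 0.23, 0.47 and 0.07 over covered genes for numbers 1, 2 and 3, and at 0.27 and 0.33 without KO 1 for numbers 2 and 3. Among the 5 libraries, values over all genes tested correlated most for KO 2 with WT 2 (0.9928) and KO 3 with WT 3 (0.9907). They correlated least for KO 2 with KO 3 (0.9836). The labels state no pairing, so the main fit left it out, with the replicate block as the alternative. Whether same-numbered libraries share a source was not tested. Without rescaling, Ephb3, Sema4d, Efna2, Efnb3 and Sema3g in KO 1 would lie inside the range of the other libraries. Sema5a in KO 1 would lie 0.0734 above the other libraries and Sema4c 0.20 above. Sema6b, inside the range after rescaling, would lie above it. With factors of 1.999 or 2.20 the 8 members furthest outside the range all kept their side. Centring moved the median of all genes from 0.02 to -0.02. The unknown depth and 2 KO libraries limit the precision.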
